A study of Mus musculus with 6 samples.

Results

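The mouse Oas1 cluster is a run of 8 paralogous genes, Oas1a to Oas1h, on chromosome 5. All 8 were found by symbol among the 55487 genes of the deposited count table, and 6 of them passed the filter on low counts and were tested, beside 12793 tested genes in all. RNA was sequenced from mouse oocytes that had been cultured from the germinal-vesicle stage to metaphase II without the drug (control, 3 libraries) or with metformin (3 libraries). Metformin is a biguanide used against type 2 diabetes. The series title gives aged mice as the donors, while the sample labels state no age and no strain. Donors were primed with 10 IU of PMSG, a gonadotropin, the oocytes were stripped of cumulus cells before culture, and the culture lasted 16 h. The culture protocol names 10, 20 and 50 μM metformin without saying which dose these libraries had. The number of oocytes in a library is not stated either.

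OAS proteins are enzymes of the interferon response. They bind double-stranded RNA and join ATP into short oligoadenylates, second messengers of the antiviral response. The active site holds 3 aspartates that bind metal ions, and losing them abolishes synthesis. Humans carry a single OAS1 gene, whereas the mouse has the tandem cluster described here. Oas1a and Oas1g encode active synthetases. Oas1b is the flavivirus resistance gene, and most laboratory strains carry a premature stop codon in it. Oas1d is known as an oocyte gene whose protein lacks synthetase activity.

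The 8 genes lay within 135 kb of the GRCm38 assembly, with 4 on each strand. In order along the chromosome these were Oas1e (ENSMUSG00000066867, chr5:120786226-120795530, minus strand), Oas1c (ENSMUSG00000001166, chr5:120800194-120812514, minus), Oas1b (ENSMUSG00000029605, chr5:120812635-120824163, plus) and Oas1f (ENSMUSG00000053765, chr5:120847367-120857986, plus). They were followed by Oas1h (ENSMUSG00000001168, chr5:120861421-120873506, plus), Oas1g (ENSMUSG00000066861, chr5:120876142-120887613, minus), Oas1a (ENSMUSG00000052776, chr5:120896256-120907521, minus) and Oas1d (ENSMUSG00000032623, chr5:120914536-120921652, plus). GENCODE M21 annotates 7 of them as protein-coding and Oas1b as a polymorphic pseudogene. The longer annotated frame of Oas1b has 376 codons and reads TGA, a stop, at codon 253 of this reference sequence.

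The coding sequence around the first pair of active-site aspartates is shown because the genes that differ here also differ in the levels given further on. The sequences are from the GENCODE M21 transcripts, run 5′ to 3′ on the coding strand and cross the junction of exons 1 and 2 (exons 2 and 3 in the Oas1c transcript used). Capitals mark the codons aligned to the aspartate pair of Oas1a, its codons 76 and 78.
Oas1a (chr5:120905822-120907302): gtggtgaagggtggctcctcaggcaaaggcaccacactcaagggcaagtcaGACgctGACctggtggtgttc
Oas1g (chr5:120885999-120887388): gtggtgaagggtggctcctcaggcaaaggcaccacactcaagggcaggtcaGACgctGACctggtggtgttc
Oas1b (chr5:120812872-120814476): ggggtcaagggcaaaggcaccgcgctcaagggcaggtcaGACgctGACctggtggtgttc
Oas1h (chr5:120861649-120862595): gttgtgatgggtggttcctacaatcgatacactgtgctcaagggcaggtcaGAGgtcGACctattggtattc
Oas1d (chr5:120915058-120915724): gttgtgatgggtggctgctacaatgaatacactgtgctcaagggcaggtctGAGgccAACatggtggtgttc
Oas1e (chr5:120794331-120795324): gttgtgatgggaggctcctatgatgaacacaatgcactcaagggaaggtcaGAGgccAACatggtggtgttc
Oas1c (chr5:120808186-120808589): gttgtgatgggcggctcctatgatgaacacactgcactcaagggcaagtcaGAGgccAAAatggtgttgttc
Oas1f (chr5:120847566-120848231): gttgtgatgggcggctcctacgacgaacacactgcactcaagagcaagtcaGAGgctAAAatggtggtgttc

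Oas1a, Oas1g and Oas1b carried aspartate codons (GAC) at both places. Oas1h carried GAG, a glutamate codon, at the first and GAC at the second. Oas1d and Oas1e carried GAG and AAC, and Oas1c and Oas1f carried GAG and AAA, so that these 4 genes had no aspartate codon at either place. The codon aligned to a further aspartate codon of Oas1a, its codon 155, was GAT in all 8. The codon of the third active-site aspartate was not compared. The stretch was 72 bases long in 7 genes and 60 in Oas1b, which is 4 codons shorter here.

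All 8 paralogues were compared by level, per length, with the FPKM values that the authors deposited (fragments scaled by gene length and by library size). The oocyte libraries held much Oas1d RNA and almost none of Oas1a and Oas1g. In order of mean level over 6 libraries the genes were Oas1d, Oas1e, Oas1h, Oas1c, Oas1f, Oas1b, Oas1g and Oas1a. The 5 genes that lack the first aspartate codon filled the first 5 places, and the 3 that carry the aspartate pair filled the last 3. This match was not tested, and the stretch was chosen for display with the levels known. Over the whole coding sequence those 3 are also closer to each other (80.6% to 96.7% identical bases) than to the other 5 (at most 77.4%). The pair is no measure of synthetase activity, which was not tested, and the stretch of Oas1b is shorter (60 bases against 72 in Oas1a).

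Oas1d stood at 1747, 1725 and 1889 FPKM in control replicates 1 to 3 and at 1746, 1662 and 1865 FPKM in metformin replicates 1 to 3. These values covered a narrow range with the groups overlapping, and their mean of 1772 ± 87.1 FPKM (SD, n = 6) placed Oas1d at rank 36 of all genes in the table. The growth factor gene Gdf9, a standard oocyte transcript, stood at 2766 ± 212 FPKM (SD, n = 6). Oas1d alone received 210566 reads, or 0.358% ± 0.0176 of the counts of a library (SD, n = 6).

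Oas1e, whose coding sequence is 90.9% identical to that of Oas1d, was next. It stood at 359, 371 and 411 FPKM in the control libraries and at 441, 325 and 428 FPKM in the metformin libraries, where metformin replicate 2 was the lowest of all 6. Its mean of 389 ± 44.9 FPKM (SD, n = 6) was at rank 136. The log2 ratio of Oas1d to Oas1e was 2.19 ± 0.129 (SD over 6 libraries, FPKM + 0.1), and Oas1d was the higher gene in 6 of 6.

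Oas1h and Oas1c were close to each other. Oas1h stood at 70.4, 73.8 and 64.3 FPKM in control and at 70.5, 67.4 and 65.1 FPKM in metformin libraries. Oas1c stood at 59.6, 67.1 and 44.9 FPKM in control and at 78.3, 52.1 and 45.4 FPKM in metformin libraries. Oas1c was the more variable gene, and in metformin replicate 1 it was above Oas1h. The log2 ratio of Oas1h to Oas1c was 0.27 ± 0.257 (SD, n = 6), with a range from -0.15 to 0.52, and Oas1h was higher in 5 of 6 libraries.

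Oas1f and Oas1b were low but were read in every library. Oas1f stood at 8.07, 8.25 and 7.79 FPKM in control and at 7.51, 8.81 and 5.80 FPKM in metformin libraries, of which replicate 3 was the lowest of the 6. Oas1b stood at 1.53, 2.34 and 2.21 FPKM in control and at 2.31, 1.36 and 1.77 FPKM in metformin libraries, with the ranges of both groups overlapping. The counts behind Oas1b were 46 to 76 reads per library.

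Oas1g and Oas1a were at or under the floor of 3 counts in every library. Oas1g had 2 reads in control replicate 1 and in metformin replicates 1 and 2 and none in the other libraries, 6 reads in all (exact Poisson 95% interval 2.20 to 13.1). Oas1a had 0 reads in 6 of 6 libraries. A floor of 3 counts per library stands for 0.150 to 0.185 FPKM of Oas1a over its annotated exons. The deposited level of Oas1d was at least 9344-fold above that floor. Such intervals and floors cover counting error only, and not reads that match more than 1 paralogue.

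**Figure D1:**
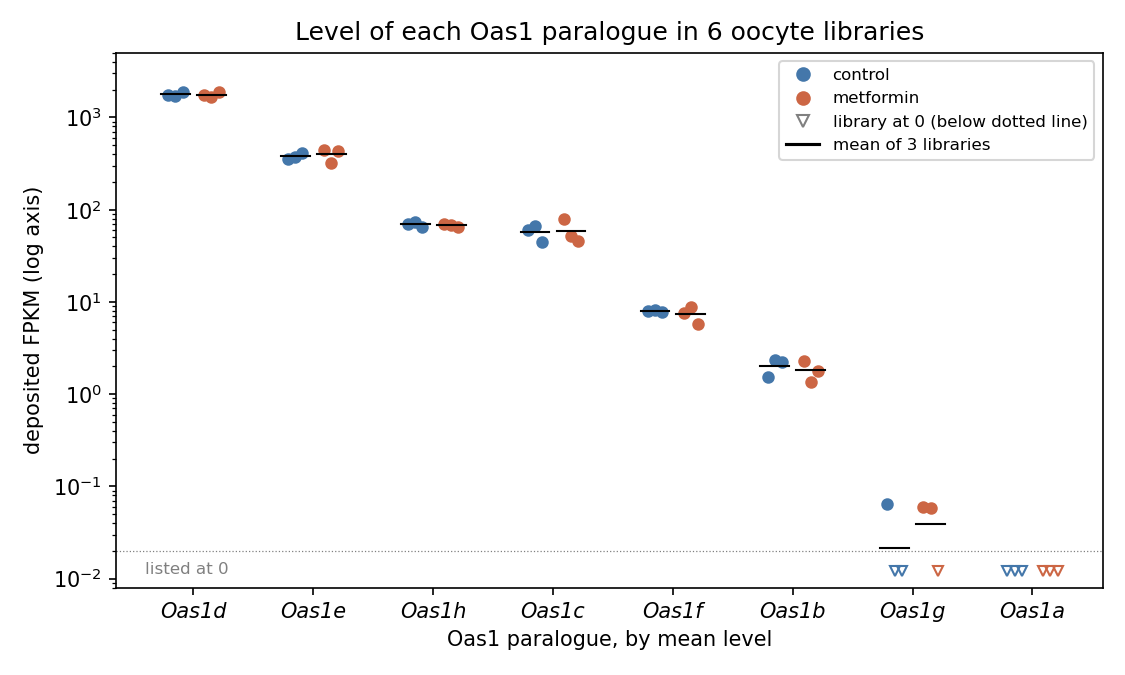
Deposited FPKM (log axis) of each Oas1 paralogue, 1 point per library (blue control, orange metformin), with bars at the mean of 3 libraries and open triangles for libraries at 0. Levels fall from 1772 FPKM for Oas1d to 0 for Oas1a, and within each gene the control and metformin points overlap.

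The same member was the higher in all 6 libraries in 26 of the 28 pairs of paralogues. Each of these had a p of 0.0312 (exact sign-flip permutation test, two-sided, adjusted p = 0.0337 over 28 pairs). With 6 of 6 libraries in 1 direction this p is fixed whatever the size of the difference, and 6 libraries allow no smaller one. It does not cover the gene lengths behind the FPKM, which are common to all libraries. The exceptions were 2 pairs of neighbours in the order. Oas1h and Oas1c did not differ beyond their spread (p = 0.0938, adjusted p = 0.0972, exact sign-flip test), and neither did Oas1g and Oas1a (p = 0.25, adjusted p = 0.25, same test). Without metformin replicate 1, Oas1h was above Oas1c in all 5 remaining libraries, and 27 pairs kept 1 order.

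Oas1d made up 77.2% ± 1.47 of the summed FPKM of the cluster (SD, n = 6) and Oas1e 16.9% ± 1.25. Oas1h made up 2.99% ± 0.261, Oas1c 2.53% ± 0.593, Oas1f 0.337% ± 0.0592 and Oas1b 0.0832% ± 0.0169. The share of Oas1d was 77.6% ± 0.706 in control and 76.8% ± 2.12 in metformin libraries (SD, n = 3). That of Oas1e was 16.5% ± 0.499 and 17.3% ± 1.78, so both shares moved by more than the SD of the control libraries and by less than that of the metformin libraries. These shares depend on the gene lengths behind the FPKM. On CPM per kb of annotated exons, a scale added after the data were seen, they were 70.7% ± 1.73 for Oas1d, 22.2% ± 1.53 for Oas1e and 0.127% ± 0.0253 for Oas1b (SD, n = 6).

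Levels did not rise or fall steadily along the cluster, though the 2 lowest genes, Oas1g and Oas1a, are neighbours. Oas1e and Oas1d, the 2 most abundant genes, are at opposite ends of the cluster, and Oas1d starts 7.015 kb from the start of Oas1a, which had no read. Oas1c and Oas1b start 120 bases apart on opposite strands, with means of 57.9 ± 13.1 and 1.92 ± 0.425 FPKM (SD, n = 6). Of 3 other protein-coding genes within 50 kb, the most abundant was Rph3a, a synaptic vesicle protein gene, at 5.17 ± 1.01 FPKM.

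**Figure D2:**
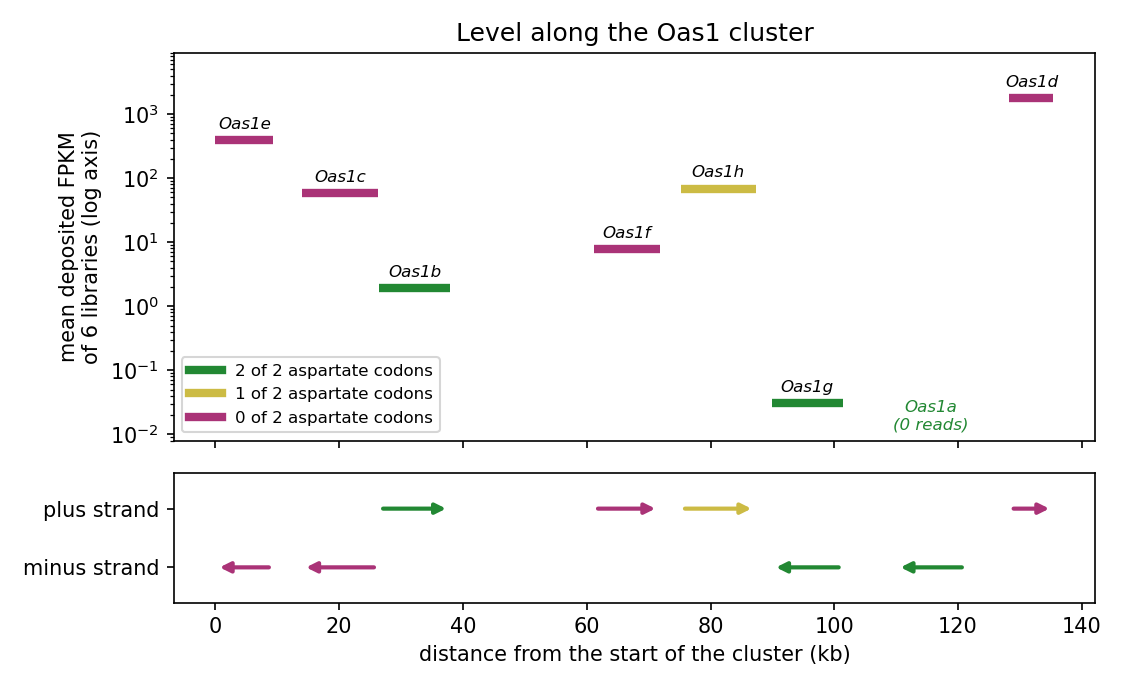
Upper panel, mean deposited FPKM of 6 libraries (log axis) of each gene drawn over its span in kb from the start of the cluster, and lower panel, its strand. Colours give the number of aspartate codons at the first pair of active-site places, and the 3 genes with 2 of them are the 3 lowest.

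How far reads can be assigned to 1 paralogue differs between members. The coding sequences of Oas1a and Oas1g are 96.7% identical, and 57.6% of all 50-base windows of the Oas1a transcript occur exactly in a transcript of Oas1g or Oas1b. At 100 bases the share was 40.9%. For Oas1g the shares were 54.7% and 38.2%. For Oas1d they were 6.24% and 0%, for Oas1e 11.3% and 0%, for Oas1c 16.3% and 4.47%, and for Oas1h 0.484% and 0%. The shared 100-base windows of Oas1c are those of Gm43069, an antisense gene that covers 9.44% of its exons and had 1 read in all 6 libraries together. The low counts of Oas1a and Oas1g are therefore the least certain of the 8, as the sources do not give the treatment of reads that match both genes.

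RefSeq (GRCm38.p6) promoters were at hand for Oas1a, Oas1c, Oas1f, Oas1g and Oas1h and not for Oas1b, Oas1d and Oas1e. The core of the interferon-stimulated response element, through which interferon-induced factors act, was searched as GAAA, any 2 bases and GAAA again, on both strands of the 250 bases before the start. It was found in 3 of the 5, Oas1a, Oas1g and Oas1c, and in 2.98% of all 32851 promoters of this length. The 120 bases nearest the start are shown, 5′ to 3′, for a gene without reads (Oas1a), for Oas1c, whose window is the gap up to Oas1b, and for Oas1h, which was at the level of Oas1c. Capitals mark the matches.
Oas1a (chr5:120907526-120907645, minus strand): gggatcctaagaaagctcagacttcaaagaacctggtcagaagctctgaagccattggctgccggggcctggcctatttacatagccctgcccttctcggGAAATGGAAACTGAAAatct
Oas1c (chr5:120812515-120812634, minus strand): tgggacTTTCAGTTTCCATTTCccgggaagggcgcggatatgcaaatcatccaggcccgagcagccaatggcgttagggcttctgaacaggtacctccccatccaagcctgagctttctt
Oas1h (chr5:120861302-120861421, plus strand): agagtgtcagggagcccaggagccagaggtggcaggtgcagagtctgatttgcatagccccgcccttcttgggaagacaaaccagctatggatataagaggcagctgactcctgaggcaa

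In each of the 3 promoters, 2 overlapping matches formed a run of 16 bases. These 16 bases were identical in all 3 when Oas1c is read on its other strand. The 3 promoters of these related genes are therefore not separate finds to set against the share of all promoters. The run ended 5 bases before the start of Oas1a and 3 bases before that of Oas1g. In Oas1c it lay on the opposite strand, 99 to 114 bases before the Oas1c start, which is 7 to 22 bases before the start of Oas1b. Oas1f and Oas1h held no match. Each of these 2 held 2 matches to the E-box CANNTG, the kind of site that the oocyte factor FIGLA binds, which 66.2% of all promoters hold, while Oas1a, Oas1g and Oas1c held none. TAATTG, a site of the oocyte factor NOBOX, was in 0 of the 5 against 7.17% of all promoters, and TATAAA was in 0 of the 5 against 12.4%. A match is a run of letters and was not tested for binding.

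The comparison of metformin with control asked whether the drug in the culture medium went with other levels of these transcripts at metaphase II. Of the 6 paralogues tested, 0 passed by edgeR's quasi-likelihood test with Benjamini-Hochberg adjustment over all genes, where 0.0391% of all tested genes passed. Fitted values were higher for 2 and lower for 4 of the 6, with a median log2 fold change of -0.02 against 0.01 for all tested genes. Of the 6, 0 had an unadjusted p under 0.05, as had 1.5% of all tested genes, and 0 passed by DESeq2 or limma-voom. In 0 of the 6 were the groups without overlap, against 5.63% of all tested genes.

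For Oas1d the mean was 3612 ± 328 CPM without and 3590 ± 429 CPM with metformin (CPM, counts scaled to TMM-adjusted library sizes and not to gene length; SD, n = 3). Its values were 3449, 3398 and 3989 CPM against 3328, 3359 and 4085 CPM, so that replicate 3 was the highest in both groups. The log2 fold change was -0.01 with a 95% interval from -0.33 to 0.31 (SE 0.147, adjusted p = 1.00, edgeR), which leaves room for a fold between 0.796 and 1.24.

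Oas1e stood at 985 ± 110 and 1040 ± 183 CPM (SD, n = 3). Its log2 fold change was 0.08 with a 95% interval from -0.27 to 0.43 (adjusted p = 1.00, edgeR). Metformin replicates 1 and 3 were within or above the control range and replicate 2 was below it.

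Oas1h had means of 149 ± 5.15 and 146 ± 4.51 CPM (SD, n = 3), and by CPM was the least variable paralogue over all 6 libraries. By deposited FPKM its coefficient of variation was 5.29%, against 4.92% for Oas1d. The fitted log2 fold change was -0.02 with a 95% interval from -0.30 to 0.25. Over all 6 libraries the SD of its log2 CPM was 0.0439, and only 0.367% of the 1637 tested genes within 2-fold of its level had a smaller one. Oas1c had means of 183 ± 30.0 and 187 ± 43.3 CPM. Its fitted log2 fold change was 0.04 with an interval from -0.36 to 0.44. The SD of its log2 CPM was 0.253, against a median of 0.165 for the 1423 genes of like level. Oas1h and Oas1c, near each other in level, thus differed in how much they varied between libraries (adjusted p = 1.00 for each fold change, edgeR).

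Oas1f stood at 14.8 ± 0.239 and 13.6 ± 2.37 CPM (SD, n = 3). The fitted log2 fold change was -0.12 with a 95% interval from -0.54 to 0.31. The 3 control libraries were almost equal, between 14.5 and 14.98 CPM, and the metformin libraries at 13.0, 16.2 and 11.6 CPM lay on both sides of them. Oas1b stood at 6.72 ± 1.54 and 6.03 ± 1.38 CPM. Here the fitted log2 fold change was -0.15 and the interval the widest, from -0.74 to 0.43 (adjusted p = 1.00 for each, edgeR). Oas1a and Oas1g did not pass the filter and have no fold change.

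**Figure D3:**
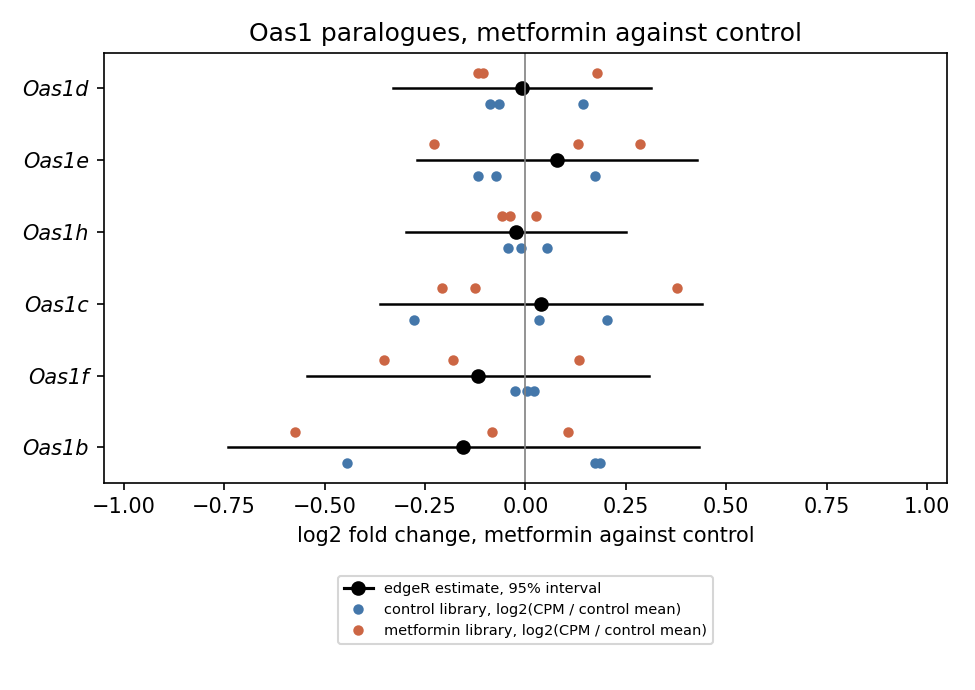
Log2 fold change of metformin against control for the 6 tested paralogues, with the edgeR estimate and its 95% interval in black and each library's log2 CPM relative to the control mean in colour. Every interval spans 0, from the narrowest for Oas1h (-0.30 to 0.25) to the widest for Oas1b (-0.74 to 0.43).

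The sum over the 8 paralogues does not depend on how the counted reads were divided among them. It stood at 4711, 4721 and 5418 CPM in control and at 4806, 4533 and 5613 CPM in metformin libraries. The groups overlapped, with means of 4950 ± 405 and 4984 ± 562 CPM (SD, n = 3). The cluster took up 0.495% ± 0.0203 of control and 0.494% ± 0.0351 of metformin counts. In such libraries fewer oocytes and less RNA per oocyte cannot be told apart.

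The 4 other OAS genes, which encode larger synthetases or proteins with a ubiquitin-like tail, were all under 1 FPKM. Oasl1 stood at 0.644 ± 0.0995 FPKM, Oasl2 at 0.109 ± 0.0633 FPKM and Oas3 at 0.0951 ± 0.0356 FPKM (SD, n = 6), while Oas2 had 2 reads in 2 libraries and 0 in the other 4. Pde12, whose enzyme degrades oligoadenylates, stood at 0.0972 ± 0.0218 FPKM. Abce1, a ribosome-recycling factor that has also been tied to the oligoadenylate pathway, stood at 2.55 ± 0.493 FPKM, near the median of 2.52 FPKM over all tested genes. Of these 6 genes 3 were tested and 0 passed in either direction (edgeR; 0 at an unadjusted p under 0.05).

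Among 16 sensors and binders of double-stranded RNA, 12 were tested and 0 passed, with 5 fitted higher and 7 lower and a median log2 fold change of -0.07. Those with the most reads were Dicer1, which cuts double-stranded RNA in RNA interference, at 497 ± 29.6 CPM without and 443 ± 101 CPM with metformin, and Stau1, an RNA-binding protein gene, at 187 ± 18.5 and 201 ± 40.5 CPM (SD, n = 3). Eif2ak2, the gene of the kinase PKR that halts translation, had the smallest p of the list. Its counts were 35, 22 and 20 in control and 19, 14 and 16 in metformin libraries, low in all and without overlap. It was the 1 gene of the 12 without overlap, against 5.63% of all tested genes. Eif2ak2 did not pass (log2 fold change -0.77, SE 0.336, unadjusted p = 0.0421, adjusted p = 1.00, edgeR). The highest count was in control replicate 1, the library with the most blood and immune marker RNA (34.0 CPM against 1.94 to 3.20 CPM elsewhere). Without that library the log2 fold change was -0.50 (unadjusted p = 0.207, edgeR, with fewer control libraries). Control replicates 2 and 3, at 2.49 and 2.07 CPM, were still above all metformin libraries, at 1.38 to 1.81 CPM. In the fit without control replicate 1, 6 of the list were fitted higher and 6 lower.

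Of 21 genes of interferon receptors and signalling, 13 were tested and 0 passed, with 9 fitted higher and a median of 0.12. The receptor kinase genes Jak2 and Jak1 had the most reads, at 329 ± 20.3 and 203 ± 19.0 CPM without and 357 ± 46.7 and 210 ± 21.4 CPM with metformin. Socs1, an inhibitor of these kinases, had the smallest p (log2 fold change -0.26, SE 0.251, unadjusted p = 0.326, adjusted p = 1.00, edgeR). Without control replicate 1 the split turned to 4 fitted higher and 9 lower, with a median of -0.05, and 0 passed. Of 25 interferon-induced genes, 4 were tested and 0 passed, with 4 fitted lower and a median of -0.19. Bst2, a membrane protein that tethers virus particles, stood at 25.3 ± 13.6 and 23.6 ± 8.61 CPM, the exonuclease gene Isg20 at 10.8 ± 2.77 and 9.34 ± 0.951 CPM and the antibody receptor gene Trim21 at 1.44 ± 0.353 and 1.03 ± 0.649 CPM (SD, n = 3). Bst2 also varied among the metformin libraries, at 26.7, 13.9 and 30.2 CPM in replicates 1 to 3. Bst2 and Isg20 were highest in control replicate 1, at 40.4 and 13.7 CPM. Without it the log2 fold change was 0.40 for Bst2 and -0.0043 for Isg20, in place of -0.10 and -0.21, and 1 of the 4 was fitted higher. In that list 7 genes had no read in any library, Ifit2, Ifit3, Ifi44, Ifi35, Isg15, Mx2 and Psmb8. The median level was 0.0146 FPKM for the 25 interferon-induced genes, against 32.8 FPKM for the 8 Oas1 paralogues and 456 FPKM for 15 oocyte genes.

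**Figure D4:**
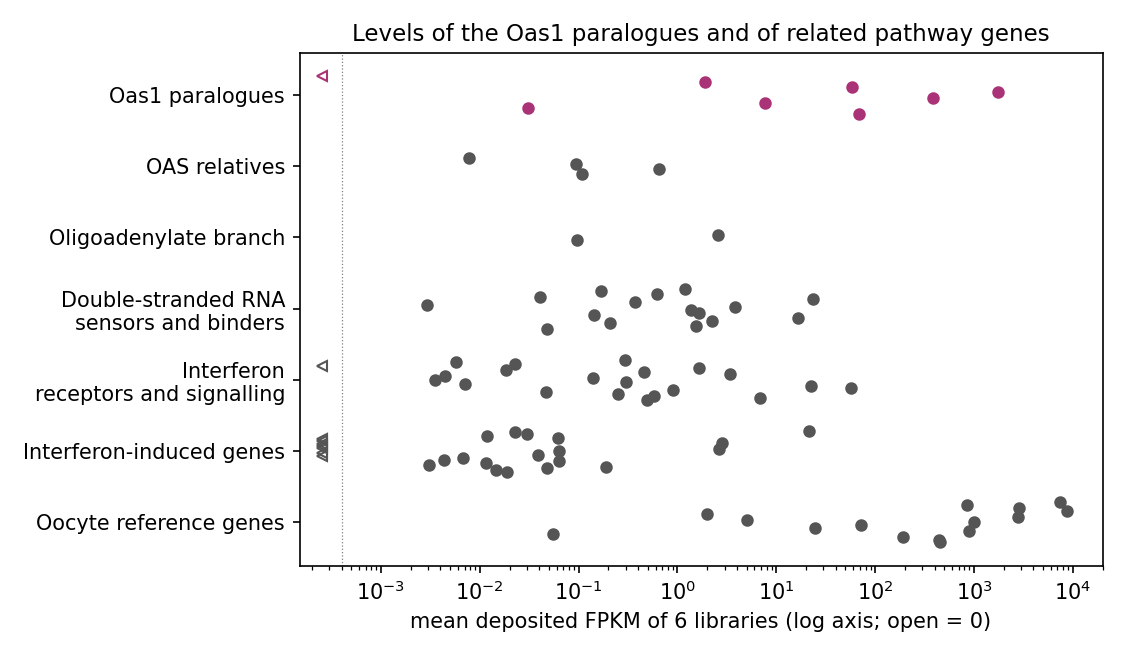
Mean deposited FPKM of 6 libraries (log axis), 1 point per gene, for the Oas1 paralogues, the lists of related genes and the oocyte reference genes, with open symbols left of the dotted line for genes at 0. Of the 8 paralogues 6 are above 1 FPKM, as are 0 of the 4 other OAS genes and 3 of the 25 interferon-induced genes.

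The tested genes whose pattern over the 6 libraries was most like that of Oas1d were Nuf2, a kinetochore gene, Tubal3, an alpha-tubulin-like gene, and Wdr33, a gene of the polyadenylation machinery. Likeness was the root mean square difference of log2 CPM after centring each gene, at 0.0256, 0.0283 and 0.0300 against a median of 0.271 over all tested genes. Since these were picked from the smallest of 12792 differences over only 6 libraries, the median is no yardstick for them, and shared regulation was not tested. Those genes were at 668, 118 and 479 CPM on average. Oas1e differed from Oas1d by 0.118 and Oas1h by 0.122 on this measure, while Oas1c differed by 0.333.

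The libraries held 8622281 to 10588292 counts each. Of 15 oocyte markers, 14 or 15 had reads in every library, summing to 38447 to 54082 CPM. The 14 cumulus and granulosa markers summed to 54.7 to 66.4 CPM, with 7 or 8 of them read in each library. In all, 10 of these 14 had a read in some library and 2 passed the filter, while Amh, Amhr2, Foxl2 and Ptx3 were at 0 throughout. Blood and immune markers, 14 in all, were highest in control replicate 1, as given above for the related lists. Without control replicate 1 the log2 fold changes of the 6 paralogues were between -0.34 and 0.05, and 0 passed.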

How the data were processed

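The authors deposited raw read counts and FPKM values per Ensembl gene, per the file headers. CASAVA 1.8, TopHat2 2.0.6 and the mm10 build are listed, per the submitters' processing notes. Counting program, annotation release and handling of multiply matching reads: not given in the sources used here. Per the labels' protocols a SMART-Seq HT kit was used, which primes on poly(A) tails and keeps no strand. The gene lengths implied by the deposited FPKM were equal to the GENCODE M21 exon length for Oas1d (2021 bases) and larger for others, such as Oas1e (2590 against 1801).

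Counts were tested with edgeR 4.0.16 (R 4.3.3; TMM, filterByExpr minimum 10, robust quasi-likelihood fit, group as the only term, Benjamini-Hochberg threshold 0.05). SE is the size of the log2 fold change divided by the root of F. Scripts were tested on simulated data. DESeq2 1.42.0 and limma 3.58.1 were alternatives, with other scalings, filters, the replicate number as a block and each library left out. The related lists without control replicate 1 and the shares by CPM per kb were added after the data were seen. FPKM ratios used a pseudocount of 0.1. Sequences were aligned with MAFFT 7.526. Symbols were found for 55141 of 55487 identifiers. Named genes were the 8 members, the OAS relatives, Pde12 and Abce1 (1 further gene of that list is not reported here), the 2 most abundant and the smallest-p gene of 3 further lists, the most abundant neighbour, Gdf9, and the 3 genes most like Oas1d (placeholder symbols passed over). The members and lists were chosen with earlier results of these data known. The labels do not say whether samples are separate animals or pools, so p-values cover only the spread among these libraries, perhaps a technical one.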

Additional observations from a re-analysis of the deposited data

How the results depend on the processing

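Under RLE scaling, library size alone, no filter, a mean of at least 10 CPM, DESeq2, limma-voom and the non-robust fit, 0 paralogues passed and each tested one kept its sign (Oas1b was not tested at 10 CPM). Under each scaling the median log2 fold change over all tested genes was within 0.1 of 0. Over all genes, DESeq2 called 9 in place of 5, and leaving out 1 library gave 5 to 12. With single libraries left out, 0 paralogues passed, and the log2 fold change ranged from -0.34 to 0.015 for Oas1b, -0.17 to 0.15 for Oas1c, -0.11 to 0.069 for Oas1d, -0.039 to 0.21 for Oas1e, -0.26 to -0.02 for Oas1f and -0.0497 to 0.0023 for Oas1h. The sign turned for Oas1b, Oas1c, Oas1d, Oas1e and Oas1h and not for Oas1f. The summed level moved from a log2 ratio of 0.01 to between -0.08 and 0.08. Among pairs of paralogues, 26 kept 1 order with CPM per kb of annotated exons. Of the 15 pairs of members at 0.1 FPKM or more, 14 did, since fewer pairs are compared. With 1 library left out 26 or 27 did. A pseudocount of 1 FPKM changed log2 ratios only.

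With the replicate number as a block, edgeR called 7 genes and 0 paralogues. Same-numbered libraries deviated together with r = 0.144, 0.0441 and 0.2004, so the numbers are not taken as pairs, although each library correlated best with its own number, a hint from the data. Depth limits Oas1a, Oas1g and Oas1b.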
